A study of Homo sapiens with 16 samples.

Results

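The middle of an RNA chase in ALKBH5 knockdown leukaemia cells, from 1.5 to 4.5 h after the end of labelling, is described here gene by gene. The cells were THP-1, a human monocytic leukaemia line, and carried the knockdown that the labels call A5-KD. ALKBH5 is a demethylase that erases m6A, the methylated form of adenosine, from transcripts. The series holds 16 libraries in 8 groups, A5-KD and control cells at 0, 1.5, 4.5 and 7.5 h of chase, with 2 libraries per group. All groups received 100 µM 4-thiouridine (4sU) for 1 h and were then chased in 10 mM uridine. The comparison is between 4 of the 16 libraries, 2 at each of the 2 times, while the gene tests estimate the spread from all 16. It covers the genes with an abundance of at least 5 CPM (counts scaled to library size). These were 10553 of the 60564 genes in the table, of which 10549 had a conversion rate above 0 in any library and were tested. How the knockdown was made, and whether the libraries of a group came from separate cultures, is not given in the sources used here, so p-values measure only the spread between these libraries, which may be technical.

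SLAM-seq follows the fate of RNA made during a short pulse. 4sU taken up into new RNA is chemically changed so that it is read as C in place of T, and the share of T read as C in a gene's reads is its T-to-C conversion rate. During the chase labelled molecules decay and unlabelled molecules are made, so the rate of a short-lived mRNA falls quickly. An mRNA that lasts for many hours keeps its label. Its rate can go on rising after the pulse while labelled precursors are still being made into mature mRNA. Messages for cytokines, transcription factors and cell-death regulators are known for short lives, and those for ribosomal proteins, respiratory chain subunits and granule proteins for long ones. Because the rate is a share, it does not say whether the amount of a transcript changed. The deposited values carry no read depth, so no counting error could be given.

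The median rate over the genes tested was 1.11% and 1.10% in the 2 knockdown libraries at 1.5 h, and 0.746% and 0.748% at 4.5 h. The groups do not overlap, and the mean of the library medians fell to 0.676 of its starting value, a change of −0.56 on the log2 scale or −0.19 per hour. An exact two-sided permutation test of 2 against 2 libraries gives p = 0.333, the smallest it allows. In control cells the same medians went from 0.475% ± 0.00437 (SD, n = 2) to 0.323% ± 0.00827, a log2 change of −0.56. Across genes, which are not independent replicates, the Spearman correlation between the 2 libraries of a group was 0.770 at 1.5 h and 0.622 at 4.5 h in knockdown cells. The abundance column held 9 of 12 monocyte markers at 5 CPM or more, 3754 CPM in sum, against 0 of 6 erythroid, 0 of 6 epithelial, 0 of 6 fibroblast and 0 of 4 kidney markers, 1 of 6 T cell markers and 2 of 4 B cell markers. The single T cell marker at that level was CD4.

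ALKBH5 itself could not serve as a check of the knockdown, since a conversion rate is not a level. At a CPM of 4.55 it lay under the abundance minimum. Its gene lies at chr17:18183078-18209954 (hg38). In knockdown cells its rates at 1.5 h, 2.08% and 1.46%, both exceeded those at 4.5 h, 1.35% and 0.246%, which differ widely. In control cells they were 0.802% and 0.745%, then 0.304% and 0.410%. With the minimum lowered to 1 CPM, its log2 change was −1.48 (SE 0.661, limma adjusted p = 0.231), and the knockdown change minus the control change was −0.45 (adjusted p = 1).

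Most mRNAs lost label over these 3 h, and a minority passed the adjusted threshold. The median log2 change was −0.42, with quartiles of −0.81 and 0.01, and 74.2% of genes had a change below 0. In the limma test 959 genes fell, 9.09% of those tested, and 62 rose, 0.588%. For the other 9528 genes the change did not pass the adjusted threshold of 0.05. The test took its spread from all 16 libraries. With the 4 libraries of the comparison alone, 311 genes fell and 10 rose. Both libraries at 4.5 h were below both at 1.5 h in 52.8% of all genes and above them in 11.4%. All 959 genes that fell and all 62 that rose had such separate libraries. The median change was −0.99 among genes that fell and 0.50 among genes that rose. Changes were fitted on the rate plus 0.05 percentage points, and −0.99 corresponds to a halving of that sum in 3.03 h.

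The 2 sets differ in rate, abundance and span. The rates at 1.5 and 4.5 h also defined the sets, so their contrast is partly fixed by the selection. Genes that fell started from a median rate of 1.43% and came down to 0.674%, had a median abundance of 57.6 CPM and spanned a median of 102 kb of genome. Genes that rose went from 0.385% to 0.601%, had a median of 516 CPM and spanned 9.87 kb. All genes tested had medians of 1.13% at 1.5 h and 0.759% at 4.5 h, 21.6 CPM and 37.6 kb. The share of genes called also rose with abundance. From the least to the most abundant quintile of coding genes, the share that fell went from 1.32% to 19.05%, and the share that rose from 0 to 2.81%. The median change went the other way, from −0.60 to −0.12. The higher abundance of genes that fell thus does not mean that abundant genes lost more label. Because of the common fall, each library was also centred on its own median, which removes a shift of −0.53 on the log2 scale. On this relative scale the split turns round, with 712 genes higher than the median gene, 6.75%, and 49 lower, 0.464%.

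**Figure D1:**
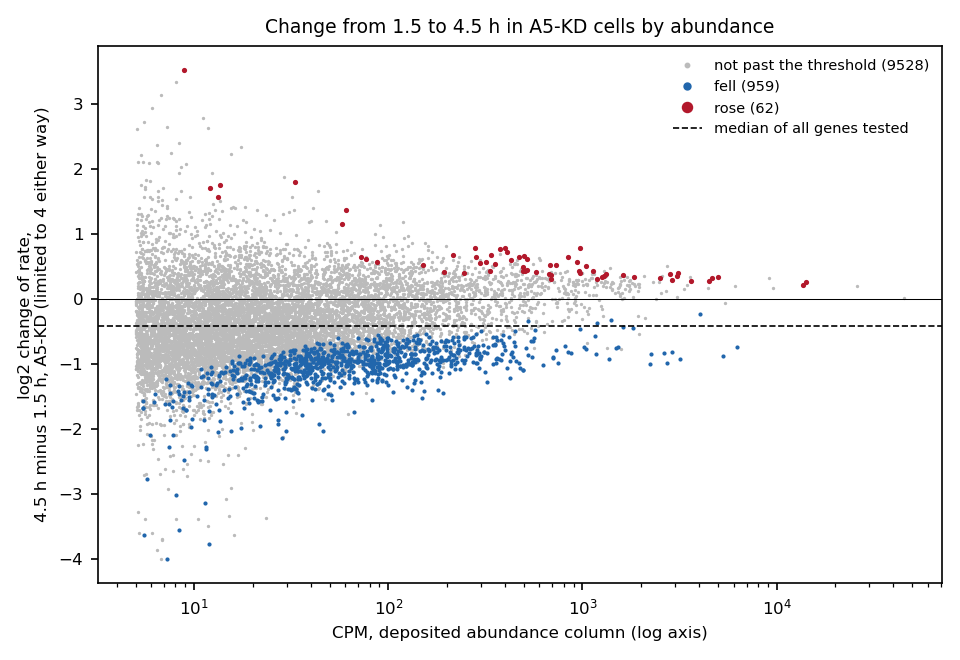
Log2 change of the conversion rate from 1.5 to 4.5 h in A5-KD cells (vertical axis) against abundance in CPM (log axis) for 10549 genes, with 959 that fell in blue and 62 that rose in red. The rising genes sit mostly at high abundance, with a median of 516 CPM against 57.6 CPM for those that fell.

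The number of calls depended on each single library. Without the first library at 1.5 h 112 genes fell, without the second 87, without the first at 4.5 h 235 and without the second 257. Each of these fits leaves a group with 1 library and borrows its spread from the remaining groups. Of the 959 genes, 65 were called in all 4 of these fits. None of the 62 was called in all 4. Of the relative calls, 224 of the 712 higher and 3 of the 49 lower were called in all 4. A call that held in all 4 of these fits is described below as held.

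Among genes of at least median abundance that passed the threshold, the largest falls were in NECAP1, BMAL1, EXOG, DDHD2, SAMSN1 and PDE4D. BMAL1, a transcription factor of the circadian clock (chr11:13276652-13387266, plus strand, hg38), had rates of 1.15% and 1.36% at 1.5 h and 0.246% and 0.292% at 4.5 h. Its change was −2.03 (SE 0.237, limma adjusted p = 0.00105), a halving of the rate plus 0.05 percentage points in 1.48 h, and the call held. PDE4D, a phosphodiesterase that degrades cyclic AMP (chr5:58969038-60522120, minus strand), went from 1.66% and 1.92% to 0.518% and 0.363%. Its change was −1.92 (SE 0.246, adjusted p = 0.00162), and it held too. The changes of these 2 genes were −0.22 and −0.10 in the first 1.5 h, and 0.05 and −0.03 after 4.5 h. Both were picked for their fall between these times. The neighbouring intervals share its libraries, which can raise their changes, and no gene passed the tests of a change of pace.

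The other large falls were less certain. NECAP1, an adaptor of clathrin-coated vesicles, went from 1.32% and 2.70% to 0.546% and 0.279%, a change of −2.13 (SE 0.548, adjusted p = 0.0317). It shares its strand with an overlapping unnamed gene, and reads of the 2 may not be separable. EXOG, a mitochondrial nuclease, went from 1.90% and 1.71% to 0.340% and 0.480% (−2.03). SAMSN1, an adaptor protein of blood cells, went from 1.33% and 1.51% to 0.293% and 0.382% (−1.93). For NECAP1 and EXOG no fit without a library kept the call, with adjusted p up to 0.211 and 0.112, and for SAMSN1 1 of the 4 fits did. DDHD2, a phospholipase, changed by −1.96, RBM15 by −1.86, LINC01060, a long noncoding RNA, by −1.79, CCDC137 by −1.74, LPAR1, a receptor for lysophosphatidic acid, by −1.71, and TOB1 by −1.58. None of these 6 was called in more than 1 of the 4 fits. CLN6, an endoplasmic reticulum protein, changed by −1.73 and TTLL5, a tubulin-modifying enzyme, by −1.56, and both held. CCDC137 and DDHD2 overlap genes on the opposite strand, and CLN6 and TTLL5 genes on the same strand, and whether strand was used in counting is not stated.

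Relative to the library medians, BMAL1 (−1.49, limma adjusted p = 0.00247), SAMSN1 (−1.40, 0.0396), PDE4D (−1.39, 0.00461), CCDC137 (−1.20, 0.0339), CLN6 (−1.20, 0.0158) and TTLL5 (−1.02, 0.0202) were lower. Only BMAL1, CCL4 and SON, a large splicing protein, were relative falls that held. SON, at 3194 CPM, went from 2.12% and 2.04% to 1.04% and 1.11%, a change of −0.92 (SE 0.0670, adjusted p = 0.000116) that had the smallest adjusted p of all genes. SON overlaps GART and DONSON on the opposite strand.

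**Figure D2:**
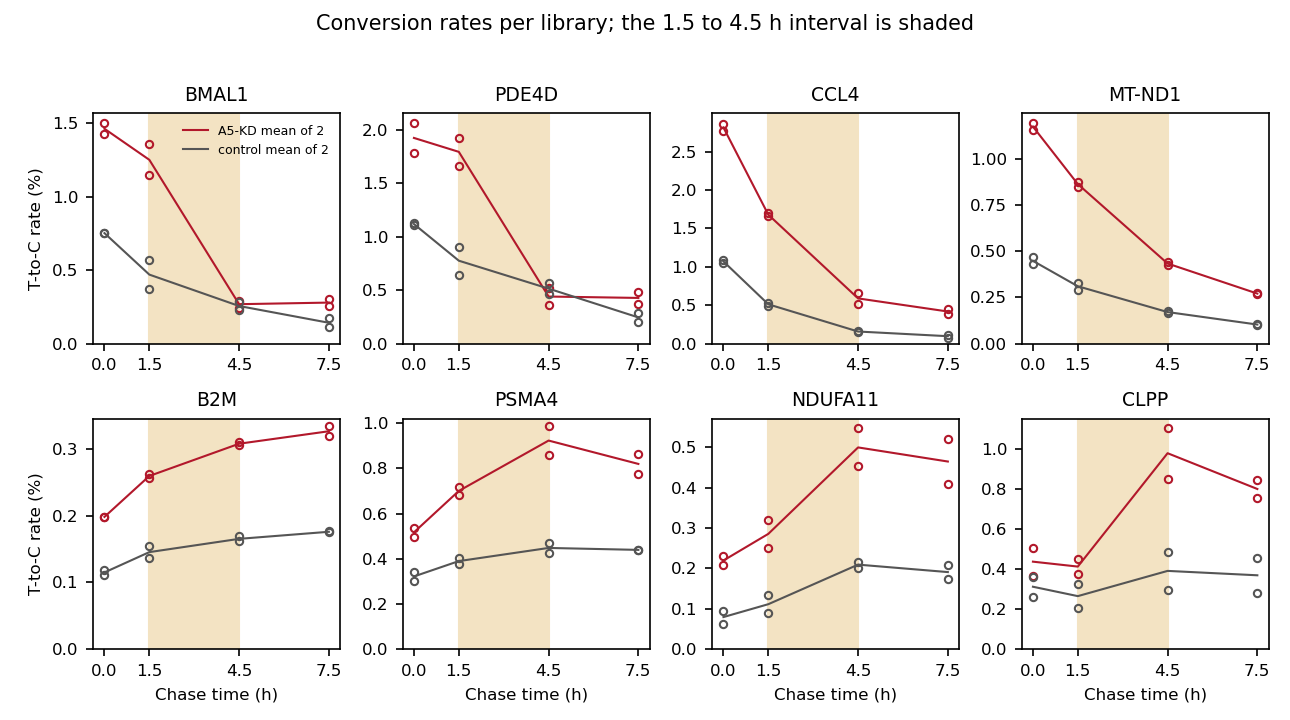
Conversion rates (%) per library over the chase (h) in A5-KD (red) and control (grey), with lines through the mean of 2 libraries and the 1.5 to 4.5 h interval shaded. BMAL1, PDE4D, CCL4 and MT-ND1 fell in the shaded interval in A5-KD, and B2M, PSMA4, NDUFA11 and CLPP rose.

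The mitochondrially encoded mRNAs lost label together. Of 13 tested, 12 fell (92.3%, against 9.09% over all genes), and 9 of these calls held. The median change was −0.75 against −0.42 over all genes. Relative to the library medians the median was −0.21, and 3 of the 13 were lower, none of them held. MT-ND1, a complex I subunit, went from 0.849% and 0.876% to 0.444% and 0.422%, a change of −0.92 (SE 0.0855, limma adjusted p = 0.000538). MT-CYB, the cytochrome b of complex III, went from 0.749% and 0.738% to 0.361% and 0.366% (−0.94). MT-CO2, an oxidase subunit, changed by −0.85 and MT-ND4 by −0.75. The 2 libraries of each time lie close together in these genes and the times are far apart. The member that did not pass was MT-ND6, a complex I subunit named after its values were seen and the only one of these messages encoded on the light strand. It had 0.0777% and 0.0699% at 1.5 h, then 0.0752% and 0.0473%, near the pseudocount of 0.05 percentage points, with a change of −0.16. The median of these mRNAs changed by −0.23 per hour before 1.5 h, −0.25 in this interval and −0.17 after it.

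Short-lived messages are known to carry AU-rich elements in their 3′ untranslated regions (UTRs), in which the pentamer AUUUA, written ATTTA in the genome, is repeated. The windows below show where the pentamers lie closest together in 6 genes of the short-lived lists that fell. They are examples with 2 or 3 pentamers each and do not stand for all such genes. The richest windows of CCL2, CCL4 and NFKBIA, which also fell, hold 1. Each is 30 bases of the 3′ UTR of a GENCODE 29 transcript, in hg38, 5′ to 3′ on the gene's strand, with ATTTA in capitals.
CCL3 (chr17:36088487-36088516, minus strand): aattttaATTTATTTAtactATTTAgtttt
BCL2 (chr18:63128353-63128382, minus strand): gaaaaaaagATTTATTTATTTAagacagtc
PMAIP1 (chr18:59903967-59903996, plus strand): aattttATTTAttttgcctATTTAtaatta
ZFP36L2 (chr2:43223452-43223481, minus strand): tgaaaactATTTAacttATTTAttatcttg
DDIT3 (chr12:57516618-57516647, minus strand): agagattgtacATTTATTTAttactgtccc
TOB1 (chr17:50862645-50862674, minus strand): taattgtataATTTAATTTAgtacaaagtt
Of 8659 tested genes with a 3′ UTR of at least 30 bases, 70.3% had a window of this length with 1 or more ATTTA, 23.4% one with 2 or more and 2.58% one with 3 or more. Among the 845 genes that fell the shares were 84.4%, 35.3% and 4.26%, and among the 54 that rose 50%, 7.41% and 0. Over all positions, 5.85% of 30-base windows in these UTRs held the pentamer, 6.54% in genes that fell and 5.77% in genes that rose. The per-gene shares thus differ more than the density, and the median 3′ UTR was 1550.5 bases in genes that fell and 243 in genes that rose. BMAL1, CLN6 and TTLL5, which fell, have none in the 3′ UTR of the transcript used.

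Of 28 chemokine, cytokine and NF-kB genes tested, 9 fell (32.1%, against 9.09% over all genes) and none rose, with a median change of −0.83, and 2 were lower and 1 higher on the relative scale. CCL4, a chemokine that attracts immune cells, went from 1.66% and 1.70% to 0.662% and 0.516%, a change of −1.45 (SE 0.153, limma adjusted p = 0.000626). CCL3, its neighbour on chromosome 17, went from 1.74% and 1.81% to 0.752% and 0.959% (−1.02, SE 0.109). CCL2, a monocyte attractant, went from 1.90% and 2.03% to 1.11% and 1.15% (−0.77, SE 0.0746). All 3 chemokine calls held. CCL3 and CCL4 have near-identical copies in the genome and CCL3 an antisense gene, so their reads could be split. NFKBIA, the inhibitor that NF-kB itself induces, went from 1.11% and 0.963% to 0.376% and 0.457% (−1.22, SE 0.197), and was called in 3 of the 4 fits without a library. For NFKBIA the earlier interval was faster, with −0.73 per hour before 1.5 h and −0.41 per hour after it, a difference that did not pass the test (adjusted p = 1).

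The immediate early and other short-lived regulators had a median change of −0.93, but were mostly of low abundance, with a median of 14.2 CPM. Of 32 tested, all 32 had a change below 0, as had 74.2% of all genes. Both libraries at 4.5 h were lower in 28 of them, against 52.8% of all genes, and 6 fell, a share of 18.8% against 9.09%. On the relative scale 0 of the 32 passed. MCL1, which protects cells from apoptosis, went from 1.89% and 1.96% to 0.823% and 0.712% (−1.27, SE 0.234, limma adjusted p = 0.00863). ZFP36L2, which binds AU-rich elements and hastens decay, went from 1.46% and 1.50% to 0.588% and 0.585% (−1.27). PMAIP1, a promoter of apoptosis, went from 2.41% and 2.62% to 1.02% and 1.12% (−1.20). TOB1, which recruits deadenylases, went from 1.34% and 1.41% to 0.406% and 0.448% (−1.58). In all 4 genes the groups are far apart, but only MCL1 kept its call in any fit without a library, in 1 of the 4, and in those fits between 0 and 1 members of the list were called. Of 23 genes of the BCL2 family and inhibitors of apoptosis, 6 fell (26.1%, against 9.09% over all genes), with a median change of −0.80. Among them BCL2 itself changed by −1.12 and BIRC6 by −0.96, and none of the list's calls held.

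Messages for transcription factors of myeloid cells and of MLL-fusion leukaemia had a median change of −0.94, close to that of the immediate early list, and the order of these 2 lists turned with a CPM minimum of 20 (−0.90 against −1.20). Of 34 tested all 34 had a change below 0, 33 had both libraries at 4.5 h below both at 1.5 h (52.8% of all genes), and 13 fell, a share of 38.2% against 9.09%. On the relative scale 2 were lower, and neither held. MEF2C, a factor of myeloid progenitors at 2645 CPM, went from 1.64% and 1.52% to 0.825% and 0.908% (−0.83, SE 0.0834, limma adjusted p = 0.000603). ZEB2, at 2240 CPM, went from 1.34% and 1.42% to 0.615% and 0.710% (−1.01, SE 0.117). JMJD1C, a chromatin cofactor of leukaemia cells, went from 1.48% and 1.38% to 0.586% and 0.653% (−1.15, SE 0.119). PBX3, a partner of HOXA proteins, went from 1.45% and 1.45% to 0.754% and 0.730% (−0.92, SE 0.111). The 4 calls held. Between 4 and 7 members of the list were called when a library was left out.

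Chromatin regulators also lost label. Of 64 tested 18 fell, a share of 28.1% against 9.09%, and none rose, with a median of −0.82; 3 were lower on the relative scale. HDAC9, a histone deacetylase, went from 1.61% and 1.59% to 0.827% and 0.854% (−0.89, limma adjusted p = 0.000672), and ARID1B, a remodelling subunit, from 1.38% and 1.29% to 0.619% and 0.588% (−1.09, adjusted p = 0.00220). Both held. NSD2, a histone methyltransferase, changed by −1.27 and KMT2E by −0.94. Of 112 ZNF zinc finger factors 15 fell, a share of 13.4% against 9.09% over all genes, at a median change of −0.81 and a median abundance of 14.2 CPM. ZNF521 (−0.90), ZNF438 (−0.93), ZNF518A (−1.28) and ZNF24 (−1.28) had the smallest adjusted p. Between 0 and 4 members were called when a library was omitted, and on the relative scale 0 passed.

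Of 22 G1 cyclins, E2F factors and CDK inhibitors 4 fell, a share of 18.2% against 9.09% over all genes, with a median change of −0.68. CDKN1A, the p21 inhibitor, went from 2.30% and 1.74% to 0.882% and 0.780% (−1.22, SE 0.248, limma adjusted p = 0.0128), E2F7, a repressor of the cycle, changed by −1.39, and CDK6 by −0.75. The shares in the other 2 cell cycle lists were near that of all genes. Of 45 DNA replication genes 5 fell (11.1%) at a median of −0.32, among them GMNN (−1.16), the geminin that blocks relicensing, and SLBP (−1.09), the histone mRNA binding protein. Of 52 mitosis genes 5 fell (9.62%) at a median of −0.24. None of the 3 lists had a gene that rose. AURKA, the Aurora A kinase, went from 2.86% and 2.83% to 0.949% and 0.955% (−1.53, SE 0.272, adjusted p = 0.00742), and ANLN changed by −1.53. The mitosis list started from a median rate of 1.59%, above the 1.13% of all genes. Of 16 p53 targets 2 fell (12.5%), MDM4 (−0.87), a p53 inhibitor whose call held, and CDKN1A, which 2 lists share.

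Of 26 genes tested of the m6A writers, readers and AlkB dioxygenases 5 fell. Of 10 writer subunits 2 fell, a share of 20% against 9.09% over all genes, and the median was −0.72. WTAP, the scaffold of the methyltransferase complex, went from 1.41% and 1.47% to 0.699% and 0.691% (−1.0, SE 0.174, limma adjusted p = 0.00707). RBM15, which guides the complex to RNA, went from 2.42% and 2.13% to 0.536% and 0.650% (−1.86, SE 0.427, adjusted p = 0.0205). The groups are separate in both genes, and WTAP kept its call in 2 of the 4 fits without a library and RBM15 in none. WTAP overlaps SOD2, which is more abundant, on the opposite strand. Of 10 readers 2 fell (20%), YTHDF3 (−1.38, adjusted p = 0.00475) and HNRNPC (−0.65, adjusted p = 0.0414), and IGF2BP2 and YTHDF2 had changes of −0.94 and −0.70 that did not pass. Of 6 AlkB dioxygenases tested 1 fell (16.7%): FTO, the other known m6A demethylase, went from 1.42% and 1.73% to 0.647% and 0.931% (−0.97, SE 0.202, adjusted p = 0.0143). ALKBH3 had −1.05 with adjusted p = 0.157. Of 8 genes of the TAM receptor axis and KDM4 demethylases none passed. AXL, a receptor kinase, had rates of 0.801% and 0.747% at 1.5 h and 0.576% and 0.671% at 4.5 h (−0.29, adjusted p = 0.262), and KDM4C, a histone demethylase, −0.59 (adjusted p = 0.0828).

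Among noncoding RNAs, 5 of 20 nuclear and unstable long noncoding RNAs fell (25%, against 9.09% over all genes), at a median of −0.69. FTX, an RNA of the X inactivation centre that overlaps JPX on the opposite strand, went from 0.776% and 0.790% to 0.322% and 0.420% (−0.99, limma adjusted p = 0.00738). DLEU2 went from 1.29% and 1.25% to 0.708% and 0.694% (−0.81, adjusted p = 0.00102), and its call held. MIR17HG, the host of a microRNA cluster, changed by −2.10 at 5.93 CPM. Of 24 snoRNA host genes, whose spliced RNAs are often degraded by nonsense-mediated decay, 5 fell (20.8%) at a median of −0.32. SNHG5, at 2901 CPM, went from 0.897% and 0.888% to 0.540% and 0.433% (−0.82, adjusted p = 0.0146).

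The respiratory chain subunits encoded in the nucleus were at the other end. Of 76 tested 7 rose, 9.21% against 0.588% of all genes, and none fell. The median change was 0.24, and 50 of 76 had both libraries at 4.5 h above both at 1.5 h, as had 11.4% of all genes. Relative to the library medians 54 of 76 were higher, against 6.75% of all genes, and 32 of these calls held. COX7A2, an oxidase subunit, went from 0.456% and 0.431% to 0.570% and 0.522% (0.27, SE 0.0670, limma adjusted p = 0.0275). NDUFA11, a complex I subunit, went from 0.252% and 0.320% to 0.453% and 0.547% (0.71, SE 0.180, adjusted p = 0.0300). NDUFB1 changed by 0.49 and NDUFB8 by 0.51. NDUFA11 and NDUFB8 each overlap an unnamed gene on the same strand. The rates at 1.5 h are low, with a median of 0.440% for the list. Its members are abundant and short, with medians of 348 CPM and 12.6 kb. In the most abundant quintile of coding genes, those with the shortest spans had a median change of 0.18, and 6.10% rose. The 2 sources of respiratory chain messages moved in opposite directions over the same 3 h. The median change was −0.75 for the mitochondrially encoded and 0.24 for the nuclear list. Their median rates went from 0.743% to 0.413% and from 0.440% to 0.533%, respectively. The difference of the lists was not tested.

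**Figure D3:**
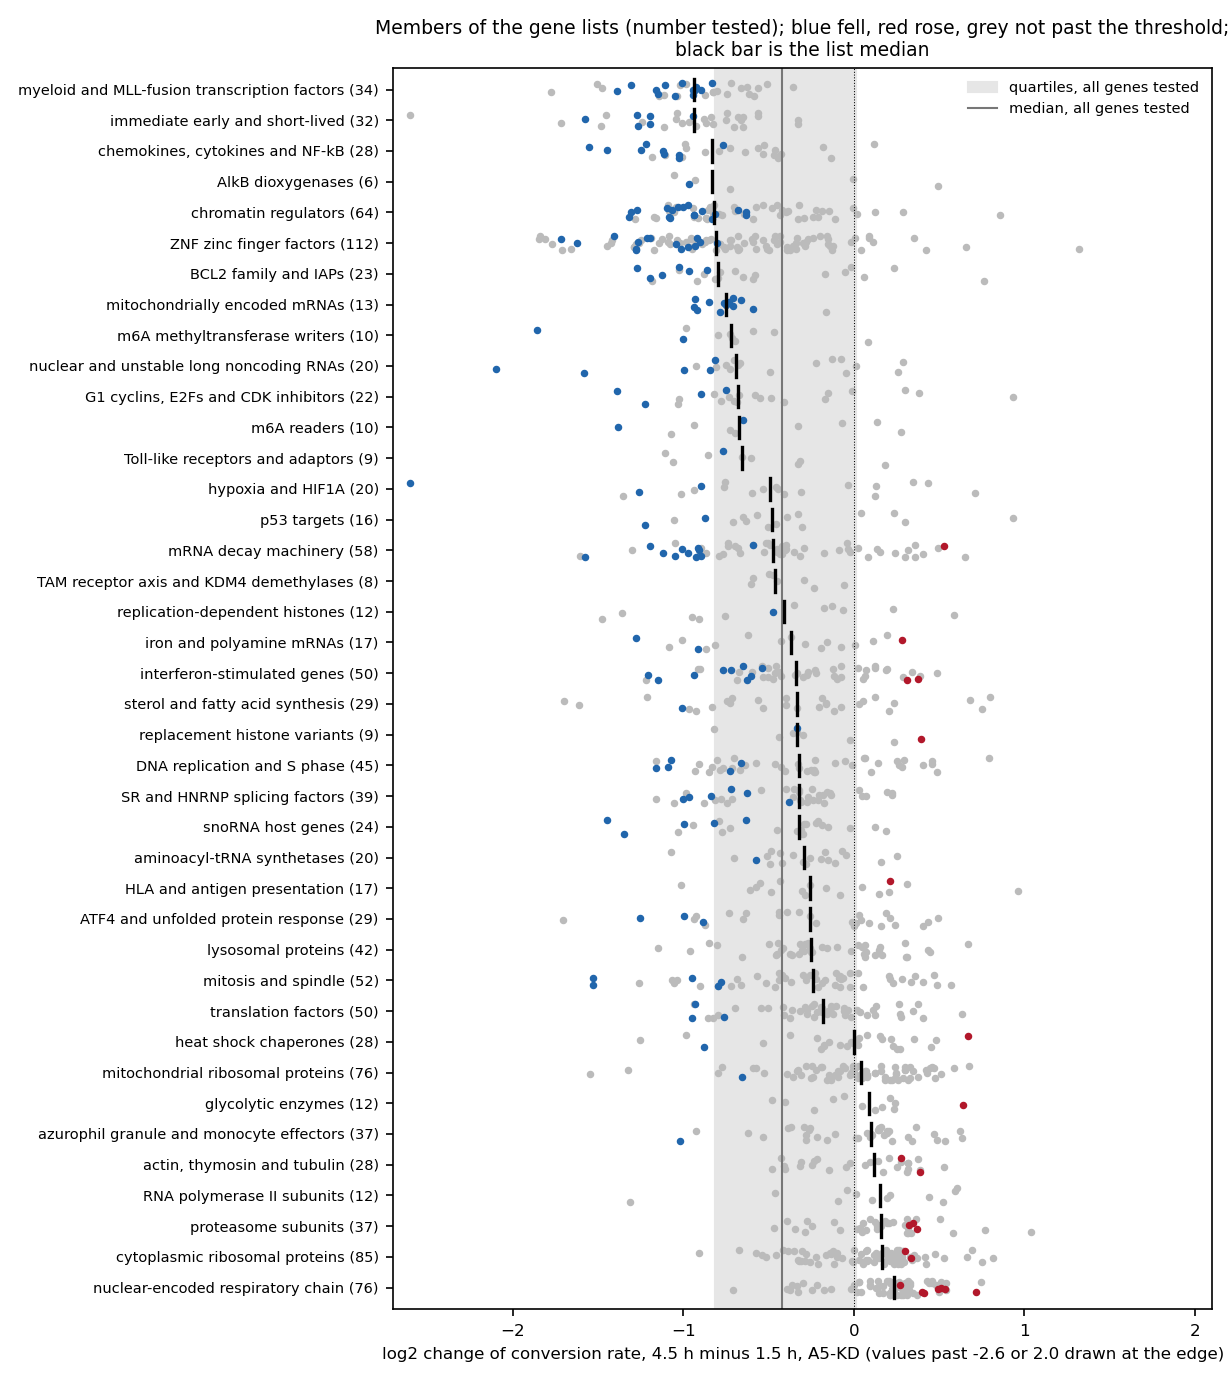
Log2 change from 1.5 to 4.5 h in A5-KD for each member of 40 gene lists (blue fell, red rose, grey not past the threshold), with the list median as a black bar and the quartiles of all genes tested shaded. List medians run from −0.94 for myeloid transcription factors to 0.24 for the nuclear-encoded respiratory chain.

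Ribosomal protein, proteasome and cytoskeleton messages had list medians above 0 as well. Such medians are not particular to these lists. In the most abundant quintile of coding genes, those with the shortest spans had a median change of 0.18, and 6.10% rose and 4.57% fell. The ribosomal protein list is likewise abundant and short, with medians of 442 CPM and 5.61 kb. Of 85 cytoplasmic ribosomal protein genes none fell and 2 rose (2.35%, against 0.588% of all genes), at a median of 0.16. Relative to the library medians 41 of the 85 were higher, against 6.75% of all genes, and 13 of these calls held. RPL5 went from 0.520% and 0.558% to 0.673% and 0.715% (0.34, limma adjusted p = 0.0485), and RPS6 from 0.40% and 0.377% to 0.468% and 0.511% (0.30, adjusted p = 0.0493). Both lost the call in every fit without a library on the raw scale and held on the relative scale. Processed copies of these genes across the genome can share their reads. Of 37 proteasome genes 3 rose (8.11%), at a median of 0.16: PSME1 from 0.154% and 0.148% to 0.211% and 0.194% (0.32), PSMA4 from 0.683% and 0.717% to 0.985% and 0.861% (0.37) and PSMA7 from 0.375% and 0.387% to 0.498% and 0.497% (0.35). Of 28 actin, thymosin and tubulin genes TMSB4X (0.28) and TMSB10 (0.39) rose, a share of 7.14%. TMSB10 overlaps TRABD2A, which is more abundant, on the opposite strand. Of 76 mitochondrial ribosomal proteins 1 fell, MRPL36 (−0.66), a share of 1.32% against 9.09% of all genes. None rose, and the median was 0.04.

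Ribosomal protein messages are known for a pyrimidine-rich tract at their 5′ end, the TOP motif, which sets their translation. The letters CTTTC were looked for on the gene's strand in 30 bases around the RefSeq start site, 15 of them upstream (GRCh38.p14). Of 85 tested ribosomal protein genes 68 matched a RefSeq entry, and 44.1% of those windows held CTTTC, against 4.18% of 27305 RefSeq windows, 4.24% of tested genes, 3.34% of genes that fell, 9.30% of genes that rose and 4.84% of the nuclear respiratory chain list. Within the list, 12 of 29 members that were higher on the relative scale held the letters (41.4%), and 18 of 39 others (46.2%). The examples below, chosen to show the letters, are from members that were higher, with CTTTC in capitals.
RPL18 (chr19:48619164-48619193, minus strand): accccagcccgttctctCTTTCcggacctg
RPS23 (chr5:82278340-82278369, minus strand): tcctgcggtgcttctctCTTTCgctcaggc
RPS14 (chr5:150449725-150449754, minus strand): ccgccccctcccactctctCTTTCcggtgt
FAU (chr11:65122120-65122149, minus strand): cgccctcgcttcttcctCTTTCtcgactcc
RPL18 changed by 0.25, RPS23 by 0.19, RPS14 by 0.24 and FAU by 0.18 on the log2 scale, none past the threshold, and by 0.79, 0.73, 0.77 and 0.71 relative to the library medians.

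Of 37 azurophil granule and monocyte genes 1 fell (2.70%, against 9.09% of all genes) and none rose, at a median of 0.10. On the relative scale 12 were higher, against 6.75% of all genes. LYZ, the lysozyme message, had lower rates than the other genes of this list that are named, 0.111% and 0.113% at 1.5 h and 0.130% and 0.140% at 4.5 h (0.19, limma adjusted p = 0.0898). LYZ, at 1276 CPM, overlaps an unnamed gene of 1217 CPM on the opposite strand. MNDA, a nuclear protein of monocytes, had a change of 0.32 (adjusted p = 0.0582). The gene that fell was ITGAL, an integrin chain, from 0.910% and 0.933% to 0.353% and 0.517% (−1.02). Of 17 antigen presentation genes only B2M, the light chain of HLA class I at 13632 CPM, rose, from 0.263% and 0.257% to 0.306% and 0.310% (0.21, SE 0.0491, adjusted p = 0.0220). The share that rose was 5.88%, against 0.588% of all genes. Of 9 Toll-like receptor genes TRAF3 fell (−0.77), a share of 11.1% near the 9.09% of all genes.

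Of 50 interferon-stimulated genes 9 fell (18%, against 9.09% over all genes) and 2 rose (4%, against 0.588%), at a median of −0.34. On the relative scale the split turns round, with 10 higher and 1 lower, against 6.75% and 0.464% of all genes. IFIT3 went from 1.54% and 1.66% to 0.667% and 0.663% (−1.21, SE 0.157, limma adjusted p = 0.00171) and held, and IFIT2 changed by −1.15. Both overlap LIPA on the opposite strand. The risers were IFITM2 (0.38) and IFITM1 (0.31), small membrane proteins that block virus entry. Of 17 iron and polyamine genes 2 fell (11.8%) and 1 rose (5.88%). FTL, the ferritin light chain, went from 0.242% and 0.238% to 0.310% and 0.296% (0.28, SE 0.0583, adjusted p = 0.0138). TFRC, the transferrin receptor, whose message is known to be cleaved when iron is ample, went from 1.32% and 1.13% to 0.597% and 0.657% (−0.91, adjusted p = 0.0377). AMD1, a polyamine enzyme, changed by −1.27.

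Of 29 ATF4 and unfolded protein response genes DDIT3 (−1.25), SLC3A2 (−0.88) and ATF4 (−0.99) fell, 10.3% against 9.09% over all genes. DDIT3 overlaps MARS1 on the opposite strand. Of 28 heat shock chaperones HSPB1 rose, from 0.274% and 0.264% to 0.503% and 0.415% (0.67, limma adjusted p = 0.0125), and CHORDC1 fell (−0.88). Each is 3.57% of the list, against 0.588% of all genes that rose and 9.09% that fell. Of 20 hypoxia genes 3 fell (15%, against 9.09% over all genes). EGLN1, the prolyl hydroxylase that marks HIF1A for degradation, changed by −1.26, HIF1A by −0.90, and PFKFB4, a glycolytic regulator at 7.22 CPM, fell from 1.45% and 1.13% to a value listed at 0 and 0.0281%. Of 39 SR and HNRNP splicing factors 6 fell (15.4%, against 9.09% over all genes), among them RBM39 (−0.84), which held, and HNRNPF (−0.97). Of 58 genes of the mRNA decay machinery 11 fell (19%) and 1 rose, and on the relative scale 6 were higher and 0 lower. CNOT4 (−1.20), a subunit of the deadenylase complex, and RC3H1 (−1.12) fell, and LSM7 (0.53) rose. Of 50 translation factors EIF5 (−0.76), EIF4G3 (−0.93) and EIF4B (−0.95) fell (6%), the first 2 with calls that held.

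Among genes of at least median abundance that passed the threshold, the largest rises were in DNAH9, AGTRAP, CLPP, HDDC2, RBIS and PDCD5. DNAH9, an axonemal dynein chain, went from 0.0571% and 0.102% to 0.323% and 0.473% (1.79, SE 0.515, limma adjusted p = 0.0486). Its rates at 0 h had been 0.461% and 0.305%, so the low point was at 1.5 h. AGTRAP, a protein that binds the angiotensin receptor, went from 0.309% and 0.238% to 0.743% and 0.816% (1.37, SE 0.369, adjusted p = 0.0383). CLPP, a mitochondrial protease, went from 0.450% and 0.376% to 1.11% and 0.853% (1.15, SE 0.30, adjusted p = 0.0340). HDDC2, which overlaps TPD52L1 on the opposite strand, changed by 0.79, RBIS, a ribosome assembly factor, by 0.78, and PDCD5 by 0.78. HDDC2 was called in 2 of the 4 fits without a library, RBIS in 1 and the other 4 in none. On the relative scale HDDC2, RBIS and PDCD5 held, and MCRIP1 (1.90), POP5 (1.68) and the pseudogene RPL38P4 (1.6) were among the 6 largest, none of these 3 past the threshold on the uncentred scale.

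All of the 62 rising genes had a mean rate under 1% at 1.5 h, and 52 had 100 CPM or more. The rate at 1.5 h entered the call, and all genes tested had medians of 1.13% and 21.6 CPM. The rising genes had a median change per hour of 0.19 before 1.5 h and 0.17 in this interval. It was −0.01 after 4.5 h, when 24 of the 62 had a change above 0. Genes that fell had −0.26, −0.33 and −0.17 per hour over the same intervals, and all genes −0.07, −0.14 and −0.13. Before 1.5 h 7 genes fell (0.0664%) and 13 rose (0.123%), and after 4.5 h 437 fell (4.14%) and 5 rose (0.0474%). Neighbouring intervals share the libraries at 1.5 h or 4.5 h.

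Most of these genes moved the same way in control cells over the same 3 h. In control 1009 genes fell, 9.56%, and 58 rose, 0.550%. Of the 959 genes that fell in knockdown, 940 had a change below 0 in control, as had 71.3% of all genes, with a median of −0.79, and 58 of the 62 that rose had a change above 0, with a median of 0.25. Both sets of calls share 530 falling genes, 55.3% of the knockdown calls and 52.5% of the control calls, and 13 rising genes, 21% and 22.4%. Across the 10549 genes the Spearman correlation of the 2 changes was 0.496. All genes share the 8 libraries behind it.

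**Figure D4:**
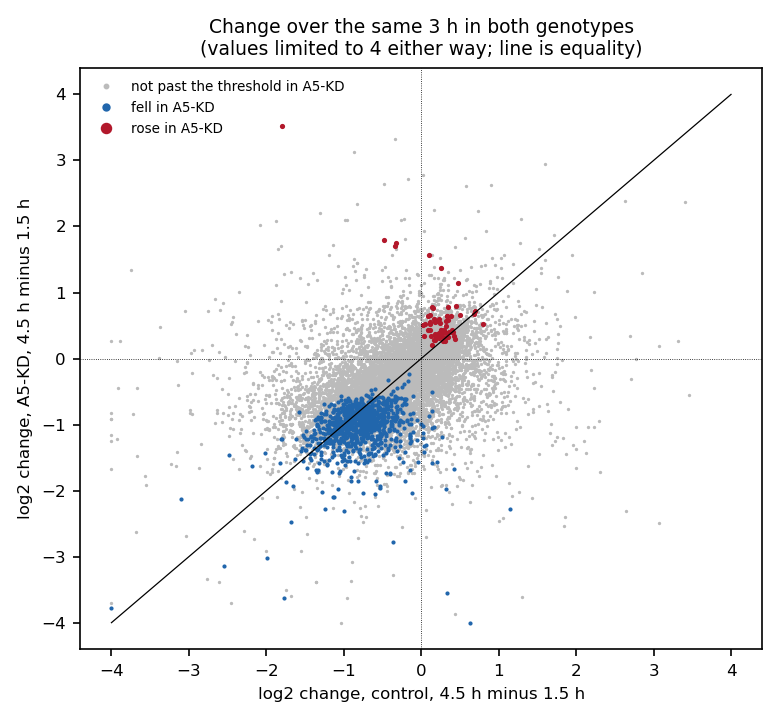
Log2 change from 1.5 to 4.5 h in A5-KD (vertical axis) against the change in control (horizontal axis) for 10549 genes, with the line of equality. Of the 959 genes that fell in A5-KD (blue) 940 lie left of 0, and of the 62 that rose (red) 58 lie right of 0.

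No gene passed the test of the difference between the knockdown change and the control change. In limma 0 were higher and 0 lower, 0.0% each way, and 452 had an unadjusted p under 0.05, 204 higher and 248 lower. The smallest adjusted p was 0.0896, for ZC3H12A and SNAP91. ZC3H12A, the ribonuclease regnase-1 at 9.92 CPM, went from 0.837% and 1.11% to 0.723% and 0.659% in knockdown, and from 0.599% and 0.831% to values listed at 0 in both control libraries. SNAP91 at 8.25 CPM was also listed at 0 in both control libraries at 4.5 h. GET4, which overlaps SUN1 on the same strand, had a change of 0.05 in knockdown and fell by 2.21 on the log2 scale in control (difference 2.26, SE 0.398, adjusted p = 0.283). In the other direction LINC01877, NUBPL and SLC37A4 had the smallest p, all with adjusted p of 0.962. For BMAL1 the difference was −1.28 (SE 0.336) and for PDE4D −1.39 (SE 0.348), with the same adjusted p. For MT-ND1 it was −0.21, for CCL4 −0.01, for MEF2C 0.11 and for NDUFA11 0.02. Without the first control library at 1.5 h 1 gene passed each way.

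No gene passed the tests of a change of pace between intervals. For the pace in this interval minus that before 1.5 h, 0 genes (0.0%) passed in limma, and 495 had an unadjusted p under 0.05, 77 higher and 418 lower. The smallest adjusted p was 0.0741, for SON and MTIF3. SON had a change of 0.12 per hour from 0 to 1.5 h and of −0.31 per hour in this interval. MTIF3, a mitochondrial initiation factor, went from 1.01% and 0.888% at 0 h to 1.78% and 2.11% at 1.5 h and 1.24% and 1.14% at 4.5 h, so that its peak lay at 1.5 h. NEXN, an actin-binding protein, went from 0.450% and 0.478% to 0.897% and 0.919% and then 0.828% and 0.786%. ZSCAN32 went the other way, from 1.93% and 1.70% to 0.412% and 0.463%, followed by 0.553% and 0.537%. For the pace in this interval minus that after 4.5 h, 0 genes passed and 590 had an unadjusted p under 0.05, 300 higher and 290 lower, with a smallest adjusted p of 0.606. LAMTOR2 had rates that were highest at 4.5 h, 0.596% and 0.549%. UBAC2, a protein of the endoplasmic reticulum, changed by −0.37 per hour in this interval and by 0.08 per hour after it.

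The change followed the length of the gene. In 8712 protein-coding genes with a 3′ UTR, the median log2 change ran from −0.10 in the quintile with the shortest span, up to 13.3 kb, through −0.28, −0.45 and −0.60 to −0.73 in the quintile with the longest, from 116 kb. The share of genes that fell went from 4.13% to 22.5%, and the share that rose from 2.01% to 0.172%. The same order held in control, from −0.08 to −0.65. It was steeper before 1.5 h, from 0.15 to −0.28 per hour, than in this interval, from −0.03 to −0.24 per hour, and flatter after 4.5 h, from −0.08 to −0.16 per hour. Abundance, UTR length and starting rate move with span: the median CPM was 31.0 in the shortest quintile and 25.1 in the longest, and the median 3′ UTR 434 and 1694 bases. The gap between the shortest and the longest genes differed with abundance: their medians were 0.18 and −0.74 in the most abundant quintile, and −0.53 and −0.67 in the least abundant, where 1.23% and 0.926% of them fell. Among genes with the shortest UTRs the medians were 0.08 and −0.70, and with the longest −0.31 and −0.76.

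**Figure D5:**
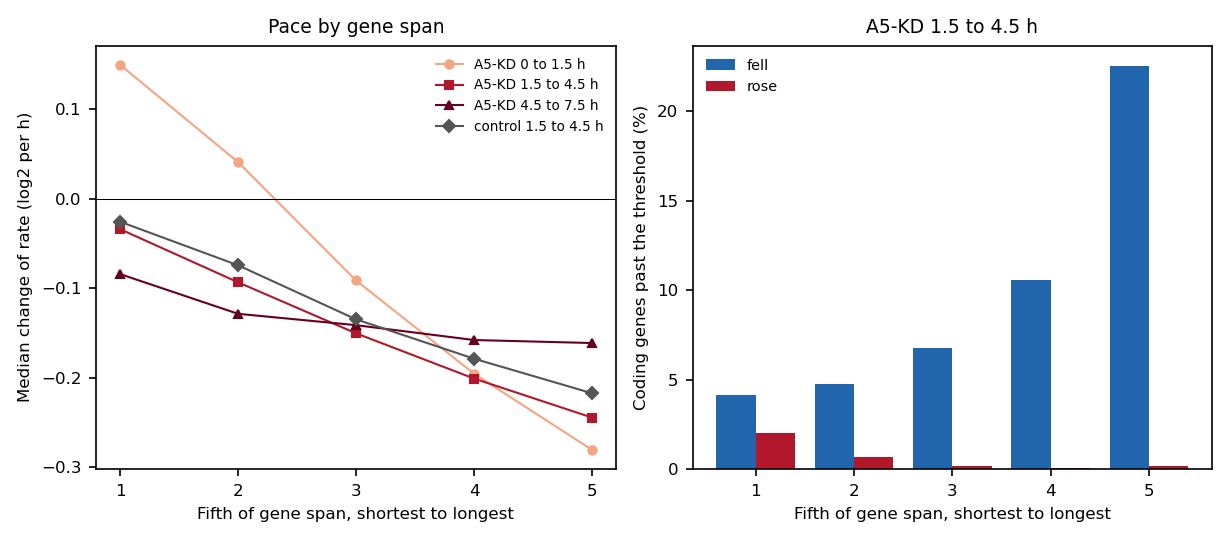
Left, median change of the conversion rate (log2 per h) by quintile of gene span for 3 intervals in A5-KD and the middle interval in control; right, share of coding genes (%) that fell or rose from 1.5 to 4.5 h in A5-KD. The longest quintile has 22.5% of genes that fell against 4.13% in the shortest.

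Other features of the message went the same way. By quintiles of 3′ UTR length the median change ran from −0.20 to −0.63, and by quintiles of coding length from −0.07 to −0.67. By quintiles of the knockdown rate at 0 h, which comes from libraries outside this comparison, it ran from 0.13 to −0.85, and the share of genes that fell from 0.746% to 25.2%. The heptamer UAUUUAU, the core of AU-rich elements and written TATTTAT in the genome, was looked for on the gene's strand, where each match also holds an ATTTA. It was present in the 3′ UTR of 31.9% of coding genes, 44.7% of those that fell and 5.56% of those that rose. Genes with none had a median change of −0.38, with 1 copy −0.58, with 2 copies −0.67 and with 3 or more −0.73. Longer UTRs hold more copies. Within each quintile of UTR length genes with the heptamer had the lower median. It was −0.45 against −0.17 in the shortest quintile, −0.43 against −0.38 in the next and −0.65 against −0.54 in the longest. In each quintile these genes also had the longer median span, 36.9 against 19.4 kb in the shortest and 78.7 against 62.5 kb in the longest. The heptamer was not tested apart from span. GGACT, a form of the sequence in which m6A is laid down, was present in 90.8% of messages, 94.8% of those that fell and 66.7% of those that rose, and the median coding lengths of these 3 sets were 1368, 1989 and 444 bases.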

How the data were processed

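Libraries were made with an NEBNext kit from poly(A) RNA of TRIzol extracts, per the labels' protocols. CASAVA, HISAT2 2.1.0 and hg38 are named in the submitters' processing notes; the tool that counted conversions, its strand setting and its masking of variants have no statement in the sources used here. The deposited table gives 1 fraction per gene and library, taken, from its values and the assay, to be a T-to-C conversion rate and shown in percent. The deposited CPM column, named so in the file headers, comes from a library that is not stated and served to filter genes and to model the variance. Columns beginning with S were taken as A5-KD by elimination. Number of T bases, and so depth, is unknown, and no library without 4sU was used, so background mismatches were not measured.

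Log2 of the rate in percent plus 0.05 was fitted with limma 3.58.1 in R 4.3.3 as 8 group means over 16 libraries, the variance following a trend in log2(CPM + 0.01), with Benjamini-Hochberg adjustment over 10549 genes at 0.05. Changes are on that scale, which understates those of low rates. The relative change used libraries centred on their medians. The models were tested on simulated data. The members of the lists and all rules were chosen with earlier results of these data known. Named genes were ALKBH5 and, among genes past the threshold, at or above the median CPM with a mean rate of at least 0.1% and separate libraries, the 12 largest falls, 6 largest rises and 6 relative changes each way, the 3 smallest p each way for each difference test, and, for each list, at most 4 genes of lowest adjusted p. Of these, some list members are left out for space, a few genes that met the rules are not reported here, and MT-ND6, the IFITM genes, LSM7 and the ribosomal protein genes with printed start windows were chosen after their values were seen. Gene spans, UTRs and coordinates came from GENCODE 29 and start windows from RefSeq. Alternatives were other pseudocounts, abundance minimums, sets of libraries, a constant prior variance, log2 odds, centring, a replicate block and leaving out each library.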

Additional observations from a re-analysis of the deposited data

How the results depend on the processing

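Leaving out 1 library gave between 87 and 257 falling genes and between 2 and 12 rising genes for the change from 1.5 to 4.5 h, between 307 and 358 higher and between 4 and 24 lower genes for the relative change, and between 0 and 1 each way for the difference between genotypes. With a pseudocount of 0.2, 1796 genes fell and 134 rose, and 1131 were relatively higher and 161 lower; with 0.01, 26 were relatively lower and 2 passed as higher in the genotype difference. With the libraries of the contrast only, 311 fell, 10 rose and 22 were relatively lower. A constant prior variance gave 17 rising, 353 relatively higher, 15 relatively lower and 2 higher in the genotype difference. A CPM minimum of 20 gave 102 rising and 113 relatively lower genes, and a minimum of 1 gave 1 gene each way in the genotype difference. For the pace difference from the early interval, 3 genes were lower with the pseudocount of 0.2, 3 with the minimum of 20 and 1 with the minimum of 1. Centring on library medians left 49 lower and 712 higher genes, and turned H4C3 to 0.061 and H3-3B to 0.20. The cause of these shifts was not tested beyond the construction of each setting. The replicate block gave 881 falling, 58 rising, 687 relatively higher and 43 relatively lower genes; the labels give only a shared number, and the correlation of replicate differences between 28 pairs of groups ran from −0.04 to 0.04. For single genes named by the rules, 1624 values kept their direction and side of the threshold under the other settings, 85 became significant, 232 lost significance and 2 reversed; on leaving out a library the counts were 506, 2, 352 and 0. Depth limits every gene by an unknown amount.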

Other observations

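Processed pseudogenes, intronless copies of spliced messages, had a median log2 change of 0.26 over 389 tested genes in knockdown and 0.25 in control, with 2 that fell and 3 that rose. Antisense genes had a median of −0.25 over 482 genes and long intergenic noncoding RNAs −0.50 over 290, of which 32 fell. Over all genes 9.09% fell and 0.588% rose. Protein-coding genes had −0.46 over 8981. Reads of a processed pseudogene and of its parent message can be hard to tell apart, and how such reads were assigned is not given in the sources used here.

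Outside the lists, and chosen after their values were seen, several transcription factors were among the 65 genes called without any 1 of the 4 libraries. NR3C1, the glucocorticoid receptor, went from 1.37% and 1.55% to 0.547% and 0.588% (−1.29). MEF2D went from 1.64% and 1.49% to 0.543% and 0.567% (−1.42). AFF1, a frequent fusion partner of MLL in leukaemia, changed by −1.14 and FOXP1 by −0.82. In control the changes of these genes were −1.13, −0.95, −0.99 and −0.94. Lysosomal proteins had 0 of 42 members past the limma threshold either way, at a median of −0.25. Of 29 sterol and fatty acid synthesis genes SREBF2, the master regulator of sterol synthesis, fell (−1.01). That is 3.45% of the list, against 9.09% of all genes.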
